A study of Drosophila melanogaster with 12 samples.

Results

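Head transcripts of flies that had been given ethosuximide after pentylenetetrazole were compared with those of flies that went from pentylenetetrazole straight to normal food, both harvested on day 14. The comparison used 8 of the 12 arrays of the series, 4 per arm, chosen by their titles and harvest day. It covered every probe with at least 3 values in each arm, which was 4766 of 13824 probes, and 2855 of these carried 1 annotated gene, for 2681 of the 6793 genes with a probe.

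All flies were wild-type Oregon-R males, unmated and 3 to 4 days old at the start. They had been separated from females under diethyl ether. Males of both arms first ate food with 8 mg/ml pentylenetetrazole (PTZ) for 7 days. In the ethosuximide (ETH) arm they then ate food with 3.48 mg/ml ETH for 3 days and normal food for 4 days. In the normal-food arm they ate normal food for all 7 remaining days. Each array carried RNA from pooled heads of treated males in one dye and of males kept on normal food throughout, called untreated here, in the other dye. The 4 arrays of an arm are biological replicates per the series' design text, and the labels do not say whether the arms shared untreated pools. No flies that ate ETH without earlier PTZ are compared here.

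PTZ is a convulsant that blocks chloride channels gated by the inhibitory transmitter GABA. ETH is a drug against absence seizures and is known as a blocker of low-voltage-activated (T-type) calcium channels. GABA is made from glutamate by glutamate decarboxylase and cleared from the synapse by transporters, much of it into glia. The series title names expression change in the head secondary to ETH, during withdrawal from PTZ, as its interest, and the contrast of the arms at day 14 sets flies with ETH in that period beside flies without it.

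Every value below is a log2 ratio of treated over untreated RNA with the array median at 0, or the difference of such ratios, ETH arm minus normal-food arm. A ratio gives no transcript level. In pooled heads, fewer cells of a type and less RNA per cell cannot be told apart. The treated RNA was in Cy5 on replicates 1 and 2 of each arm and in Cy3 on replicates 3 and 4, the dye swaps. No source used here says which dye is the numerator on the swaps. The ratios were read as Cy5 over Cy3 and the swaps turned in sign, which is an assumption. Where a difference or a list median has another sign with the swaps not turned, that value follows it in the passage describing the gene or list. It is called unturned. Same-numbered arrays of the arms have the same dye orientation, so a dye effect common to the arms cancels within a pair.

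The ETH arrays held values for 5655, 5077, 7399 and 6782 probes in replicates 1 to 4, and the normal-food arrays for 6869, 7248, 7011 and 7433. The SD of ratios over probes was 0.267 to 0.394 on ETH arrays and 0.271 to 0.290 on normal-food arrays, and the SD of the medians of the 48 print blocks of a slide was 0.0646 to 0.205 on ETH arrays and 0.0693 to 0.136 on normal-food arrays. Replicates 1 and 2 of the ETH arm had the highest values of both measures and the fewest probes. Some listed markers of cell types or tissues had values on all 8 arrays. Of markers with a probe, these were 2 of 2 for neurons (nSyb and nwk) and 4 of 7 for photoreceptors (trpl, inaC, inaD and Arr1). They were 2 of 6 for glia (Gs2 and alrm), 2 of 5 for fat body (Yp2 and Lsp2) and 1 of 2 for muscle (Act88F). For testis and accessory gland the count was 0 of 4, though ocn of the longer list of such genes had all 8 values. Over all genes with a probe, 1675 of 6793 had values on all 8 arrays. A value on an array does not show that a cell type was present in the heads.

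No gene differed between the arms past the threshold in the model as designed. The differences were small throughout: over all tested probes their median was 0.03, the central 95% ran from -0.29 to 0.35, and the median standard error (SE) was 0.14. Limma called 0 probes higher and 0 lower at an adjusted p under 0.05 (0% and 0% of 4766; lowest adjusted p = 0.911). At an unadjusted p under 0.05 there were 167 higher (3.5%) and 72 lower (1.51%), together 239 against 238.3 expected if no probe differed. Taken as genes with 1 probe each, 136 of 2681 (5.07%) had an unadjusted p under 0.05. With the replicate number as a block, 0 were higher and 1 (0.021%) lower. The count was 0 when the dye swaps were left unturned.

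The precision of the test bounds what could differ. The 95% interval of the difference lay within 1 log2 of 0 for 4749 probes (99.6%) and within 0.5 log2 for 3538 (74.2%). Larger differences at those 4749 probes thus lie outside their own intervals, while a difference of 0.5 log2 remains inside the interval of many others. The number of arrays, 4 per arm, limits this precision.

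**Figure D1:**
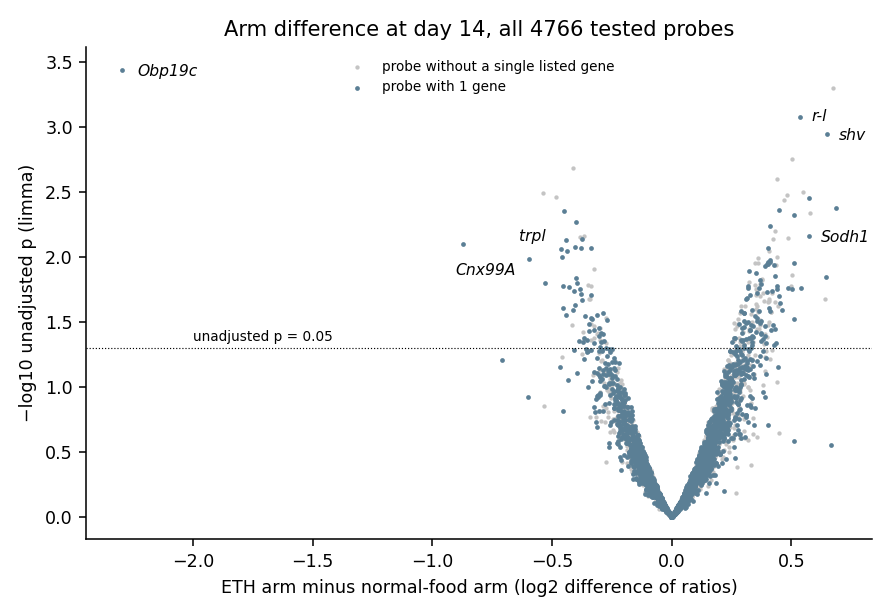
The difference between the arms (ETH arm minus normal-food arm, log2 difference of ratios, horizontal axis) against −log10 of the unadjusted limma p (vertical axis, dotted line at 0.05) for each of the 4766 tested probes, coloured by whether a probe carries 1 gene. Obp19c stands alone at -2.30 on 3 values per arm, and the other probes form a narrow funnel around 0.03.

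The channel genes nearest to the action of PTZ were measured only in part. Of 12 listed chloride channel genes, 4 had a probe and 1 had enough values, the glutamate-gated chloride channel gene GluClalpha. Its ratios were -0.11, -0.21, 0.13 and 0.22 on ETH arrays and -0.23, 0.09, 0.37 and 0.25 on normal-food arrays. The arms overlapped, and the difference was -0.12 (SE 0.12, 95% interval -0.37 to 0.14, limma adjusted p = 0.934), or 0.02 unturned. Of 8 listed calcium channel genes 3 had a probe, and 0 had enough values in both arms, so the channels that ETH blocks give no value here.

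Genes of GABA and glutamate handling lay close to 0, and 0 of the 6 tested genes passed in either direction. Gad1, the gene of the glutamate decarboxylase that makes GABA in neurons, had ratios of -0.16, 0.04, -0.20 and -0.15 on ETH arrays and -0.26, -0.15, -0.17 and -0.01 on normal-food arrays, a difference of 0.03 (SE 0.12, 95% interval -0.23 to 0.28). A difference of more than 0.28 log2 in Gad1 thus lies outside its interval in either direction. The GABA transporter gene Gat stood at 0.08 (SE 0.15; unturned -0.15), with values on 3 arrays per arm. The glutamine synthetase genes Gs1 and Gs2 stood at -0.10 (SE 0.21) and -0.05 (SE 0.16), the second at 0.16 unturned. The glutamate dehydrogenase gene Gdh stood at -0.04, and Eaat2, of the excitatory amino acid transporter family, at 0.01. The median of the 6 was -0.01 (unturned 0.03), against 0.02 (unturned -0.02) over all 2681 genes with 1 probe each. Of these 2681 genes 1503 (56.1%) lay above 0, or 1195 unturned, the share to set beside the list counts below.

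Among 8 tested sodium and potassium channel and pump genes, 4 lay above 0 and 0 passed. Shaker (Sh), the gene of a voltage-gated potassium channel whose loss makes flies shake under ether, had ratios of 0.26, -0.09, -0.05 and 0.13 on ETH arrays against -0.32, -0.19, 0.07 and -0.34 on normal-food arrays. The difference of 0.26 (SE 0.14) did not pass, and another Sh probe stood at 0.11 (SE 0.15), or -0.07 unturned. The gene unc80, whose product belongs to the sodium leak channel complex, stood at -0.25 (SE 0.14). The sodium pump subunit gene nrv3 stood at -0.18 and the hyperpolarisation-activated channel gene Ih at 0.08, or -0.18 unturned.

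Genes of vesicle release, transmitters and neuropeptides also did not pass. The synaptic vesicle fusion gene nSyb had ratios of -0.11, 0.28, -0.49 and -0.33 on ETH arrays and 0.20, 0.38, 0.00 and -0.34 on normal-food arrays, a difference of -0.22 (SE 0.13; unturned 0.02) with overlapping arms. Rab3, shi (dynamin) and Syngr (synaptogyrin) stood at 0.10, 0.10 and 0.08. The 8 vesicle release genes had a median of 0.02.

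Ddc, which makes dopamine and serotonin from their precursors, stood at 0.29 (SE 0.15) on one probe and at -0.15 (SE 0.13) on another, so its probes differ in sign. The dopamine and ecdysteroid receptor gene DopEcR stood at 0.25 and, on another probe, at 0.14. The tan gene (t), whose product frees dopamine and histamine from their β-alanine conjugates, stood at -0.46 with an SE of 0.30. The serotonin receptor gene 5-HT2A stood at 0.26 (SE 0.21). Of the 8 tested genes of amines and acetylcholine, 5 lay above 0.

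The neuropeptide gene amnesiac (amn) stood at 0.41 (SE 0.18), the highest of 5 tested neuropeptide genes. Its ratios were 0.72, -0.13 and -0.12 on ETH arrays 2 to 4 and -0.38, 0.02, -0.31 and -0.13 on normal-food arrays, so ETH replicate 2 was the high array and the arms overlapped. AstC stood at 0.14 (unturned -0.02), the clock-neuron peptide gene Pdf at 0.11 (unturned -0.21) and the insulin-like peptide gene Ilp2 at -0.15.

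**Figure D2:**
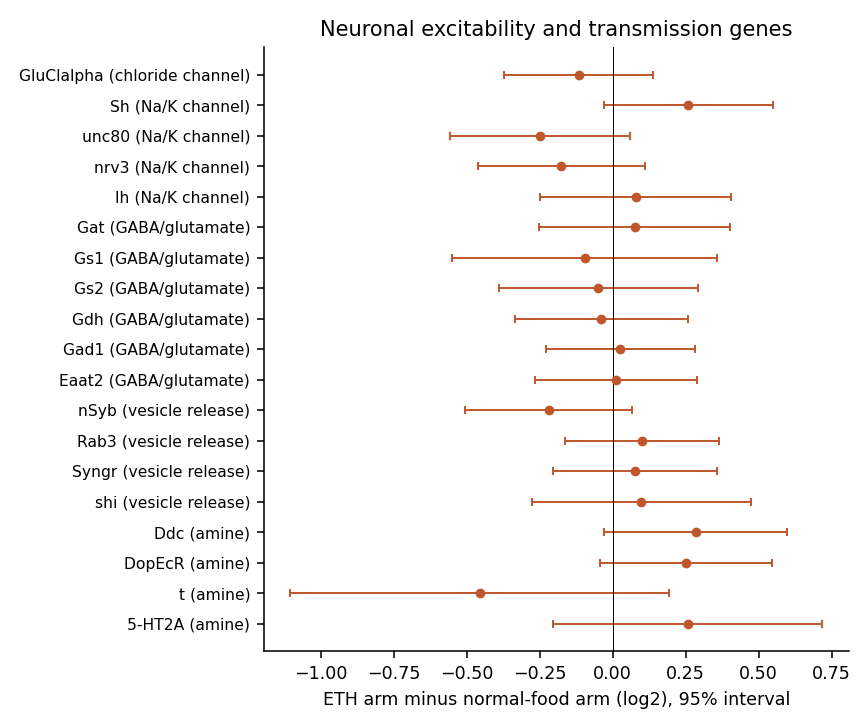
Difference between the arms (ETH arm minus normal-food arm, log2 difference of ratios) for 19 tested genes of channels, GABA and glutamate, vesicle release and amines, 1 probe each, as points with 95% intervals. Every interval drawn includes 0, and the widest is that of t, at -0.46.

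Genes of smallest p were taken from those with a value on every array of both arms. Obp19c, shv and ATPsynE, which lacked values on some arrays, were left out of this choice and are described below. The genes so chosen on the positive side act in different pathways, and each had an adjusted p of 0.911. The first was r-l, which encodes UMP synthase of the last steps of pyrimidine synthesis. Its ratios were 0.19, -0.16, 0.40 and 0.31 on ETH arrays against -0.38, -0.38, -0.41 and -0.24 on normal-food arrays. All ETH arrays were above all normal-food arrays, with means of 0.19 ± 0.24 and -0.35 ± 0.07 (SD, n = 4 each). Such separation held for 37 of 2973 probes with 8 values (1.24%), and the genes named here were picked by these same values. The difference was 0.54 (SE 0.13, 95% interval 0.27 to 0.81). Without turning the swaps it was -0.14, so its sign rests on the reading of the swaps.

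The heat-activated TRP channel gene pyrexia (pyx) had ratios of 0.06, 0.39, -0.05 and 0.23 on ETH arrays and -0.46, -0.30, -0.16 and -0.24 on normal-food arrays. The arms did not overlap, and the difference was 0.45 (SE 0.13), or 0.16 with dye swaps not turned. The synaptic scaffold gene discs large (dlg1) had 0.40, 0.07, 0.08 and 0.23 on ETH arrays and -0.56, -0.07, 0.02 and -0.33 on normal-food arrays. These did not overlap either, at a difference of 0.43 (SE 0.15).

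The netrin receptor gene frazzled (fra), which acts in axon guidance, had 0.92, 0.48, 0.39 and 0.23 on ETH arrays and 0.43, 0.03, 0.02 and -0.06 on normal-food arrays. ETH arrays were higher in 4 of 4 pairs, but the arms overlapped, at a difference of 0.40 (SE 0.14). The sorbitol dehydrogenase gene Sodh1 had 0.84, -0.04, -0.55 and -0.32 on ETH arrays and -0.59, -0.12, -0.86 and -0.80 on normal-food arrays. Replicate 1 of the ETH arm was the high array of Sodh1, and the difference was 0.58 (SE 0.18).

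The others named on this side were Plekhm1 at 0.58 (SE 0.16), whose human counterpart acts in lysosome fusion, and CG16926 at 0.51 (SE 0.17). With dye swaps not turned these stood at -0.03 and -0.06. CG5167 stood at 0.41, CG44014 at 0.40 and scu, the gene of a mitochondrial hydroxyacyl-CoA dehydrogenase, at 0.40. The microtubule polymerase gene msps did not overlap between the arms and stood at 0.32 (SE 0.11).

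On the negative side, CG6638 had ratios of -0.04, -0.09, -0.02 and -0.05 on ETH arrays and 0.35, 0.05, 0.48 and 0.52 on normal-food arrays. Every ETH array was below 0 and every normal-food array above it, with a difference of -0.40 (SE 0.12, limma adjusted p = 0.911). Left unturned, it was 0.13. The ETH arrays of CG6638 differed little from untreated heads, and the distance came from the normal-food arrays. IscU, the scaffold gene of iron-sulfur cluster assembly in mitochondria, had -0.31, -0.66, -0.27 and -0.26 on ETH arrays and 0.16, 0.27, -0.13 and -0.21 on normal-food arrays. Its arms did not overlap, and the difference of -0.40 (SE 0.14) was -0.30 with dye swaps not turned. All ETH arrays lay below all normal-food arrays for 21 of 2973 probes with 8 values (0.706%).

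Cnx99A encodes the endoplasmic reticulum chaperone calnexin, which photoreceptors need to mature rhodopsin. One Cnx99A probe had -0.57, 0.36, -0.29 and -0.82 on ETH arrays and 0.09, 0.73, 0.09 and 0.15 on normal-food arrays. The ETH array was lower in 4 of 4 pairs, at a difference of -0.60 (SE 0.20; unturned 0.08). The other Cnx99A probe stood at 0.03 (SE 0.12), so the probes of this gene do not share the difference. CG15611 and CG4004 were like it, at -0.37 and -0.41 on one probe and -0.12 and -0.05 on another.

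The RNA-binding translation regulator orb2, which is needed for long-term memory, had -0.30, -0.11, -0.06 and 0.10 on ETH arrays and 0.33, 0.04, 0.52 and 0.27 on normal-food arrays. Replicate 4 of the ETH arm lay inside the normal-food range, and the difference was -0.38 (SE 0.12), or -0.01 with dye swaps not turned. The biotin ligase gene Hcs stood at -0.34 (SE 0.13), CG14853 at -0.34 (SE 0.11) and CG10073 at -0.29 (SE 0.12). The last 3 stood at 0.05, 0.01 and 0.04 with dye swaps not turned.

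**Figure D3:**
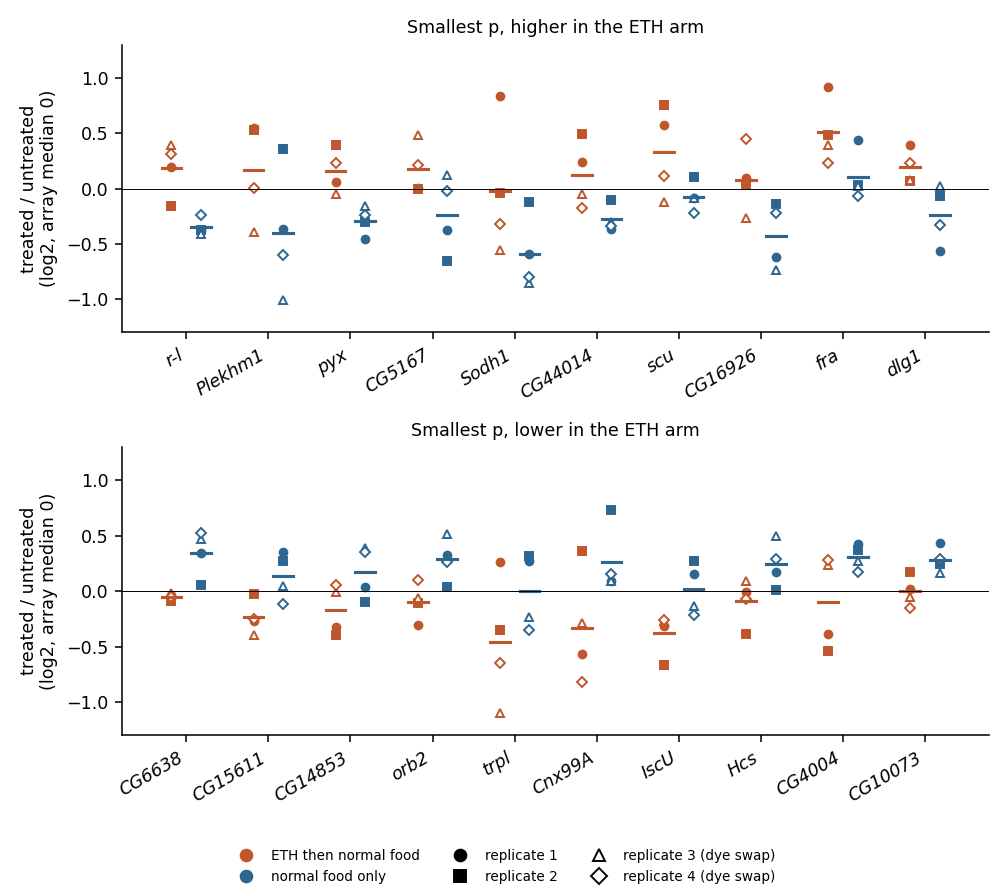
Log2 ratio of treated over untreated RNA (array median 0, vertical axis) on each array for 10 genes in each direction. These have the smallest p among genes with a value on every array of both arms. ETH arrays are left of normal-food arrays, with 1 symbol per replicate, open symbols for dye swaps and bars at arm means. The arms do not overlap for r-l, pyx, dlg1, CG6638 and IscU, and overlap for the other genes.

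Signs over pairs were counted for the 2973 probes with values on all 8 arrays. The ETH array was higher in 4 of 4 pairs for 270 probes (9.08%) and lower in 4 of 4 for 144 (4.84%). This split depended on scaling and on the dye reading: it was 119 and 187 without centring, 253 and 170 with print-block medians set to 0, and 144 and 226 (7.6%) with dye swaps not turned. All ETH arrays lay above all normal-food arrays for 37 probes (1.24%) and below them for 21 (0.706%). Counted as genes, 150 of 1675 (8.96%) were higher and 76 (4.54%) lower in 4 of 4 pairs.

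The pair rule added genes of the same sign in 4 of 4 pairs, ranked by their smallest absolute pair difference. For the genes below it ran from 0.15 (CG8312) to 0.23 (CG14618). These values are under the SD of a pair difference over probes, 0.260 to 0.372. CG14618 stood at 0.31 and side-VI, a sidestep-family cell surface gene, at 0.29, while CG16786 stood at -0.34, CG8312 at -0.25 and CG13705 at -0.24. For CG13705 every ETH array was below 0, from -0.30 to -0.03, and every normal-food array above 0, from 0.05 to 0.19. Without turning the swaps, side-VI, CG8312 and CG13705 had the other sign, at -0.0058, 0.08 and 0.04.

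The 4 pairs were not equally noisy. The SD of the pair difference over probes was 0.372, 0.320, 0.260 and 0.291 in replicates 1 to 4, and its median was 0.01, 0.02, 0.06 and 0.01. In replicate 1, 86 of 4738 probes differed by more than 1 log2, against 19 to 27 probes in the others. Across the 2973 probes with 8 values, differences of pairs of the same orientation correlated at 0.098 (replicates 1 and 2) and 0.046 (replicates 3 and 4), and those of opposite orientation at -0.102 to 0.038. These correlations are across probes of the same slides, and probes are not independent replicates.

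**Figure D4:**
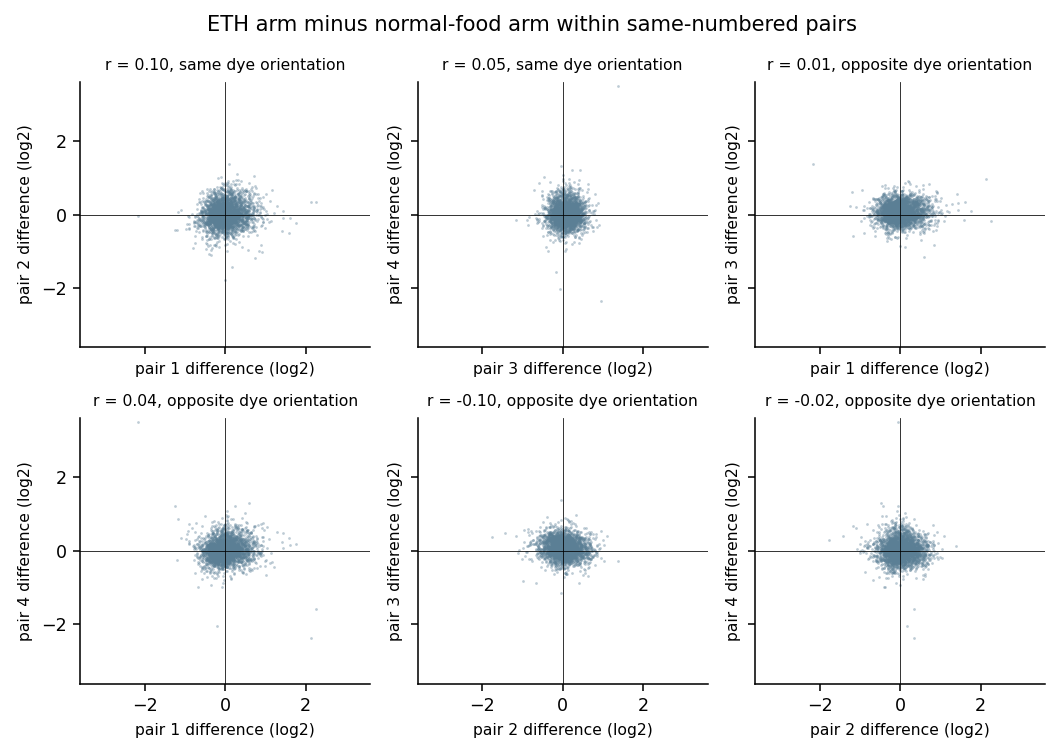
Pair differences (ETH array minus same-numbered normal-food array, log2 difference of ratios) of 1 replicate against another, with 1 point per probe with 8 values and 1 panel for each of the 6 combinations of pairs. The clouds are round, with r between -0.102 (pairs 2 and 3) and 0.098 (pairs 1 and 2).

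The odorant-binding protein gene Obp19c was the 1 gene that passed in any of the fits. Odorant-binding proteins carry odorants and other small molecules in the fluid around sensory neurons. One Obp19c probe had ratios of -1.08, -1.55 and 0.31 on ETH arrays 1, 3 and 4, and 0.18, 0.24 and 2.69 on normal-food arrays 1, 2 and 4. The highest ETH array lay above the normal-food values of replicates 1 and 2, so the arms overlapped, and the fitted difference was -2.30 (SE 0.47, limma adjusted p = 0.911). With the replicate number as a block it was -1.82 (SE 0.24, limma adjusted p = 0.0235). Only 2 complete pairs, at -1.25 and -2.38, and 1 residual degree of freedom stood behind that value. Limma moderated its SE toward the spread of other probes, with 11.6 prior degrees of freedom. Where at least 3 complete pairs were required, an alternative chosen after seeing the data, 0 probes passed. The difference was 1.01 when the swaps were not turned. The other Obp19c probe, with 7 values, stood at -0.04 (SE 0.14), or 0.03 unturned.

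The neighbouring odorant-binding genes did not pass either. Obp19a had ratios of 1.21, 0.48 and -0.20 on ETH arrays 1 to 3 and 0.34, -0.15, -1.11 and -0.26 on normal-food arrays, a difference of 0.64 (SE 0.23). Its difference was above 0 and that of the Obp19c probe below 0, but unturned both were above 0, at 0.26 and 1.01. Obp19b stood at -0.11 (unturned 0.09), and the 2 Obp19d probes at 0.10 (unturned -0.09) and -0.08. Of the 18 tested odorant-binding and chemosensory genes, 12 lay above 0 and 0 passed in the model as designed, and Obp56h stood at 0.30 and 0.24 on its 2 probes.

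Genes of phototransduction, the cascade in which light-activated rhodopsin opens TRP channels through phospholipase C, were split in sign. Of 13 tested genes, 9 lay above 0 (against 56.1% of all genes tested) with a median of 0.05, and 0 passed. Unturned, 4 of 13 lay above 0 and the median was -0.20, and it was -0.01 with print-block medians set to 0. The TRP-like channel gene trpl had ratios of 0.27, -0.35, -1.10 and -0.65 on ETH arrays and 0.27, 0.31, -0.23 and -0.35 on normal-food arrays. ETH replicate 3 was the low array and replicate 1 did not differ from its pair by more than 0.01, so the difference of -0.46 (SE 0.15) came from the other 3 pairs. It was 0.12 with dye swaps not turned. The lipid phosphatase gene laza stood at -0.33, the protein kinase C gene inaC at -0.30 and the channel gene trp at 0.19.

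Genes of the respiratory chain lay mostly a little above 0, without a call, while those of ATP synthase were evenly split. In the respiratory chain list 14 of 18 genes lay above 0 (against 56.1% of all genes tested), with a median of 0.05, and the median was above 0 in each of the 4 pairs. The highest were COX6AL at 0.28 (SE 0.14), a subunit of cytochrome c oxidase, ND-13B of complex I at 0.18 and COX4 at 0.17 (unturned -0.25). Unturned, 8 of 18 genes lay above 0 with a median of -0.02. The median was 0.01 without replicate 2 of the ETH arm and also 0.01 without centring. In the ATP synthase list 4 of 8 genes lay above 0 with a median of -0.02, and ATPsynE had -0.10, -0.63 and -0.70 on ETH arrays 1, 3 and 4 and 0.42, 0.61, -0.19 and -0.51 on normal-food arrays, a difference of -0.44 (SE 0.14).

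For the citric acid cycle list the median was 0.16, with 4 of 5 genes above 0 (against 56.1% of all genes tested). The median was above 0 in each of the 4 pairs, as it was for 2 of 30 lists, this one and the respiratory chain. The first citric acid cycle member by p, scu, is a fatty acid and amino acid oxidation enzyme and not an enzyme of the cycle. Mdh1, a malate dehydrogenase gene, stood at 0.17 (unturned -0.01), Idh3a of isocitrate dehydrogenase at 0.16 and Ogdh of oxoglutarate dehydrogenase at 0.12, all with SEs of 0.12 to 0.15. With dye swaps not turned 3 of 5 lay above 0 with a median of 0.01, and the median was 0.07 with print-block medians set to 0.

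In lipid metabolism 9 of 11 genes lay above 0 (against 56.1% of all genes tested), with a median of 0.10. Unturned, 5 of 11 lay above 0 with a median of -0.05. The mitochondrial carnitine carrier gene colt had -0.05, -0.12, -0.39 and -0.02 on ETH arrays and -0.03, -0.94, -0.70 and -0.71 on normal-food arrays. Replicate 1 of the normal-food arm lay with the ETH arrays while the other 3 were lower, and the difference was 0.45 (SE 0.17), or -0.05 unturned. The lipoprotein gene apolpp, of the main carrier of lipid in the blood, stood at 0.40 (SE 0.19) and 0.45 (SE 0.23) on its probes, and the fatty acid desaturase gene Desat1 at 0.33 (SE 0.15; unturned -0.09). The fat body storage protein gene Lsp2 stood at 0.37 (SE 0.13), and the 7 fat body genes had a median of 0.06 (unturned -0.01, with 3 of 7 above 0).

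Sugar metabolism genes lay near 0, with 9 of 16 above 0 (7 of 16 unturned), Eno (enolase) at 0.23, Treh (trehalase) at 0.15 (unturned -0.05) and Tps1 (trehalose synthesis) at -0.14. In the nucleotide synthesis list 4 of 7 lay above 0: besides r-l, the purine pathway gene Adsl stood at 0.27 (unturned -0.34) and the CTP synthase gene Ctps at -0.19. Left unturned, 0 of 7 lay above 0, with a median of -0.14.

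Immune and oxidative stress genes had the highest list medians. In the immune list 7 of 9 genes lay above 0 (against 56.1% of all genes tested), with a median of 0.19. The count and rounded median were the same with dye swaps not turned. The median rested on replicate 1 of the normal-food arm in part: it was 0.054 without that array, 0.050 without replicate 1 of both arms and 0.087 with array weights. In replicates 1 to 4 the pair medians were 0.24, 0.27, -0.01 and 0.03. BomT3, of the Toll-induced bomanin peptides, averaged -0.10 on 3 ETH arrays and -0.48 on 4 normal-food arrays, a difference of 0.30 (SE 0.14). Drsl5, a drosomycin-like peptide gene, stood at 0.30 (SE 0.15), the bomanin gene BomBc2 at 0.20 (unturned -0.17) and the serpin gene nec, an inhibitor of Toll activation, at 0.23. None of the 9 passed.

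For oxidative stress 7 of 9 genes were above 0 (against 56.1% of all genes tested), with a median of 0.17. With dye swaps not turned 2 of 9 were, with a median of -0.15. With the swaps turned, the median was 0.043 without replicate 4 of both arms and 0.100 without replicate 4 of the ETH arm. Without replicates 1 and 4 of the normal-food arm, each left out singly, it was 0.050 and 0.110. Gclm, the modifier subunit of glutathione synthesis, stood at 0.38 (SE 0.18), the ferritin light chain gene Fer2LCH at 0.33 (SE 0.17), the mitochondrial peroxiredoxin gene Prx3 at 0.23 and the mitochondrial superoxide dismutase gene Sod2 at 0.20. For each of them the normal-food arm had the lower mean, at -0.31, -0.40, -0.17 and -0.21. Unturned, Gclm, Prx3 and Sod2 stood at -0.28, -0.17 and -0.15.

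No detoxification gene passed the threshold. Of 30 tested cytochrome P450 genes 19 lay above 0 (against 56.1% of all genes tested), with a median of 0.03. Cyp4ad1 had -0.40, -0.14 and -0.01 on ETH arrays 2 to 4 and 0.59, 0.01, 0.32 and 0.11 on normal-food arrays. The difference was -0.46 (SE 0.17). These values did not overlap, but with 3 ETH values that happens more readily than with 4, and its share over probes was not counted. Cyp4ac1 and Cyp28d1 stood at 0.30 each (the second at -0.10 unturned) and Cyp4e2 at -0.31. The 10 glutathione S-transferase genes had a median of -0.01 (unturned 0.00). Of the 4 tested UDP-glycosyltransferase genes 2 lay above 0 (4 unturned), with a median of 0.05. Ugt317A1 stood at 0.27 (SE 0.20) and Ugt49B1 at -0.15 (SE 0.15; unturned 0.01), both with values on 3 arrays per arm.

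The proteasome list was the 1 of 30 lists of at least 5 tested genes whose median lay below 0 in each of the 4 pairs. Its median was -0.09, with 4 of 11 genes above 0, or -0.02 unturned. This value was not stable: it was 0.006 with the replicate block, -0.03 with print-block medians set to 0, 0.006 without replicate 2 of the normal-food arm, 0.009 without replicate 2 of both arms, and -0.005, -0.04, -0.004 and -0.05 without replicates 1, 2, 3 and 4 of the ETH arm. The regulatory particle gene Rpn12 had 0.00, 0.07, 0.11 and -0.11 on ETH arrays and 0.54, 0.33, 0.01 and 0.33 on normal-food arrays, a difference of -0.28 (SE 0.13). The ATPase genes Rpt4 and Rpt4R stood at -0.15 (unturned 0.15) and 0.16.

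Of the chaperone list 9 of 15 genes lay above 0 with a median of 0.00, and unturned 5 of 15 with a median of -0.06. It was -0.02 with print-block medians set to 0. The DnaJ-type chaperone gene shv, at 0.65 (SE 0.15), was the highest of the list. It had 0.35, 0.08 and 0.48 on ETH arrays 1, 3 and 4 and -0.20, -0.40 and -0.44 on normal-food arrays 2 to 4. These did not overlap, on 3 values per arm, and the share of such probes was not counted. With dye swaps not turned shv stood at -0.28. Cytosolic ribosomal protein genes lay above 0 in 11 of 15 (median 0.05), against 56.1% of all genes tested, with RpLP0 at 0.26. Unturned, 6 of 15 lay above 0 (median -0.04).

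The lists together lay slightly above 0, as did the genes as a whole. Of 30 lists with at least 5 tested genes, 24 had a median above 0, between -0.09 and 0.19 in all, and 0 of their genes passed. The median over all 2681 genes was 0.02 (unturned -0.02) and 1503 of them (56.1%) lay above 0, while unturned 1195 did. With dye swaps not turned, 12 of the 30 medians lay above 0, so the sign of many list medians rests on the reading of the swaps.

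**Figure D5:**
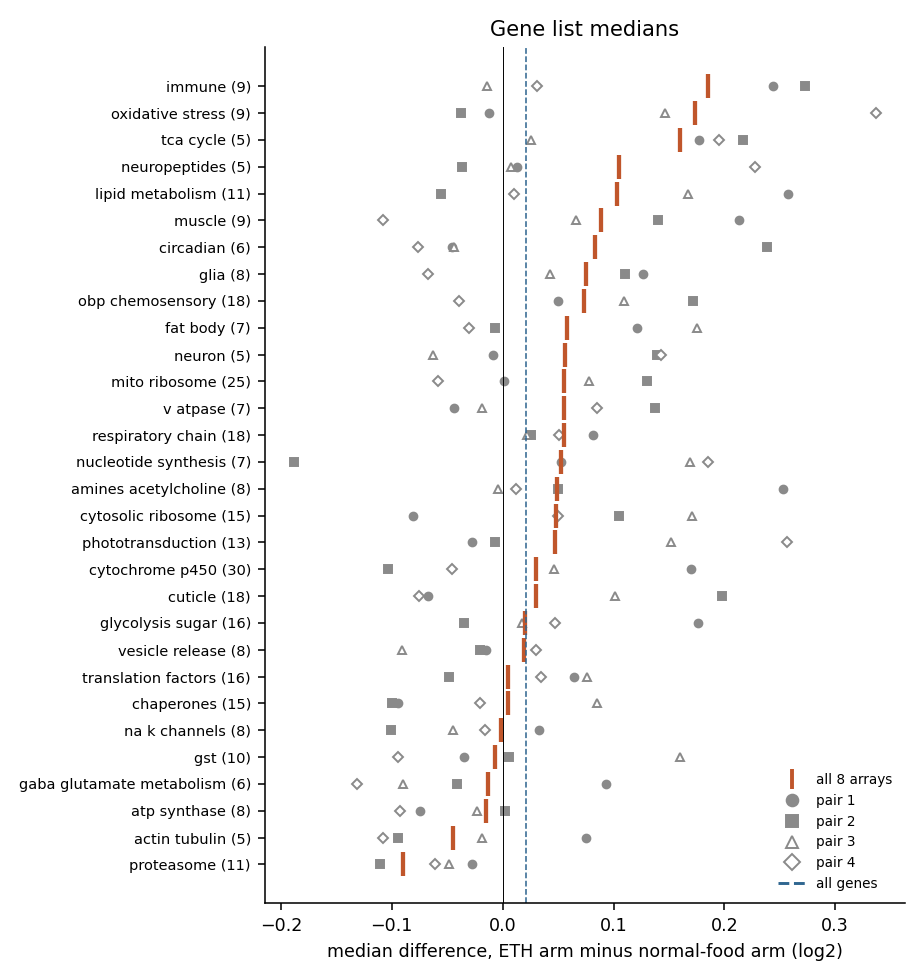
Median difference between the arms (ETH arm minus normal-food arm, log2 difference of ratios) of each gene list with at least 5 tested genes, as bars, with the medians in the 4 pairs as symbols, the number of genes in brackets and a dashed line at the median of all genes (0.02). Medians run from -0.09 (proteasome) to 0.19 (immune), and the pair medians of most lists lie on both sides of 0.

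Several genes below the untreated level in both arms did not separate them. The P450 gene Cyp313a1 had -0.13, -0.55, -0.79 and -0.86 on ETH arrays and -0.57, -0.30, -1.17 and -0.44 on normal-food arrays, all below 0. Its means were -0.58 ± 0.33 in the ETH arm and -0.62 ± 0.38 in the normal-food arm (SD, n = 4 each), with a difference of 0.04 (95% interval -0.31 to 0.38). The gluconeogenic enzyme gene fbp averaged -0.44 in the ETH arm and -0.52 in the normal-food arm, with a difference of 0.08 (SE 0.14; unturned -0.03). These genes are named because earlier results of these data were known.

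The calcium-binding protein gene regucalcin averaged -0.40 ± 0.02 in the ETH arm and -0.32 ± 0.20 in the normal-food arm (SD, n = 4 each), a difference of -0.08 (SE 0.13; unturned 0.00). Miox, which opens myo-inositol, averaged -0.48 on 3 ETH arrays and -0.50 on 4 normal-food arrays, with a fitted difference of 0.10 (unturned -0.16). The glucose-6-phosphate isomerase gene Pgi averaged -0.29 in the ETH arm and -0.47 in the normal-food arm, a difference of 0.18 (SE 0.13). CG9689 averaged -0.58 in the ETH arm and -0.37 in the normal-food arm, a difference of -0.21 (SE 0.14; unturned 0.02). None of these differences passed, and their intervals do not show that the arms were alike.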

How the data were processed

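RNA from fly heads was hybridised to spotted cDNA arrays with 2 colours. The authors used GenePix Pro 6.0 for quantification and Acuity 4.0 for normalization, per the series' design text. The deposited values are log2 ratios, as the low values show: as linear ratios, 100% of the 126 lowest fell on a grid of 0.001, to within 0.05 of its step. The genome build is not given in the sources used here. The deposited array medians ran from -0.353 to 0.0285 and were not centred, for a reason not known here.

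Adjacent spots were averaged in pairs, from 27648 spots to 13824 probes. GEO's platform annotation gave 1 gene to 7558 probes, several to 51 and none to 6215, and 7447 of the 7558 matched a current RefSeq symbol. Spots at the ceiling of the software (5 values of 16.61 log2) were treated as missing. Ratios on dye swaps were turned in sign and each array was centred on its median. No 2 of the 8 arrays shared more than 0.289% of values.

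The difference of the arms was fitted in limma 3.58.1 (R 4.3.3) with a mean per arm and 1 dye term, over the 8 arrays, for probes with at least 3 values per arm, with Benjamini-Hochberg adjustment over all of them. Missing values were not imputed. The code was tested on simulated data. Named were the 10 genes of smallest p in each direction with 8 values, all tested chloride channel, calcium channel and GABA and glutamate genes, up to 4 genes of each other list by p, genes that passed with the replicate block, and up to 6 genes per direction by smallest pair difference. Further genes are said in the text to be chosen otherwise, or are neighbours or other probes of these. The comparison, the members and the 35 lists were chosen with earlier results of these data known.

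Deviations from the arm mean correlated between same-numbered arrays at 0.211, 0.549, 0.453 and 0.313 (2973 probes), and after the dye term at 0.028, 0.059, -0.247 and -0.310. By the labels, the numbers mark a shared dye orientation. Removing the arm means and the dye term itself draws these correlations below 0, so they cannot show whether the numbers mark more. As deposited, arrays of the same orientation correlated over probes at -0.014 to 0.603. Those of opposite orientation correlated at -0.225 to 0.332 within an arm (median 0.153) and at -0.183 to 0.335 between arms (median 0.179).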

Additional observations from a re-analysis of the deposited data

Results flagged for a closer look

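Named genes were checked for an array far from the other 3 of its arm and for arms of opposite sign. Among 52 groups checked for such an array, chance flags about 1 in 20. That rate does not apply to arms of opposite sign, since the genes were named by values of these same arrays. CG6638 lay below 0 on 4 of 4 ETH arrays and above 0 on 4 of 4 normal-food arrays, at a difference of -0.40, and CG13705 did the same at -0.24, while neither difference passed limma (adjusted p = 0.911 for both). Obp19c passed with the replicate block, at -1.82, on 2 complete pairs.

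Of single arrays, IscU stood at -0.66 on ETH replicate 2, against -0.31 to -0.26 on the other ETH arrays. Cnx99A stood at 0.73 on normal-food replicate 2, against 0.09 to 0.15 on the others of that arm. CG14618 stood at -0.32 on normal-food replicate 2, against 0.01 to 0.07.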

How the results depend on the processing

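The count of 0 calls stayed at 0 in 12 leave-outs of an array or a pair (0 to 0, lowest adjusted p = 0.473) and in the other alternatives, except with the replicate block, where it was 1, and with the replicate block and print-block medians set to 0, where it was 1. Both calls were Obp19c (adjusted p = 0.0235 and 0.0462), and the block changed no other call. Without centring the lowest limma adjusted p was 0.0535, close to the threshold. It was 0.207 with array weights and 0.237 with a dye term per arm. The number at an unadjusted p under 0.05, 239 in the model as designed, was 109 without replicate 4 of both arms, 130 without replicate 3 of both, 136 without replicate 4 of the ETH arm and 145 without replicate 1 of the normal-food arm, fits that also tested fewer probes. It was 78 with all 12 arrays, 123 without a dye term, 146 without centring (64 higher and 82 lower) and 370 with array weights; the cause was not tested. The count of list medians above 0, 24 of 30, was 12 with dye swaps not turned, 15 with the replicate block as well, 18 without centring or with print-block medians set to 0, and 20 to 25 in the leave-outs.

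Of 27 named genes, 13 had the other sign with dye swaps not turned, with or without the replicate block, a reading that turns the sign of the pairs of replicates 3 and 4 by construction: r-l at -0.14, Plekhm1 at -0.032, CG16926 at -0.063, side-VI at -0.0058, CG6638 at 0.13, trpl at 0.12, Cnx99A at 0.079, CG8312 at 0.081, Hcs at 0.048, CG10073 at 0.043, CG13705 at 0.042, CG14853 at 0.0097 and Obp19c at 1.01, or 0.56 with the block. With print-block medians also set to 0, chosen after seeing the data, 13 had the other sign: r-l at -0.18, Plekhm1 at -0.10, CG16926 at -0.13, side-VI at -0.047, CG5167 at -0.032, fra at -0.0021, CG6638 at 0.11, trpl at 0.14, Cnx99A at 0.068, CG8312 at 0.14, CG10073 at 0.094, CG13705 at 0.078 and Obp19c at 0.98. Under each other alternative run, 0 named genes changed sign. Arrays per arm limit what can be called, and probes near background lack values.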

Other observations

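Some genes had values in 1 arm only and so entered no comparison. Among probes with 1 gene, 1, CG8065, had values on 4 of 4 ETH arrays and on 0 normal-food arrays, and 28 had values on 4 of 4 normal-food arrays and on 0 ETH arrays. Over all probes these counts were 2 and 44. The authors filtered spots on intensity and quality, per the series' design text, and ETH replicates 1 and 2 had the fewest probes with a value, 5655 and 5077, so a missing value is no measure of expression. CG8065 had ratios of 1.10, 0.35, -0.05 and 0.16 on the ETH arrays. Among the 28, and chosen after their values were seen, were loco, which regulates G protein signalling in glia, with ratios of -0.05, -0.08, -0.08 and -0.02 on the normal-food arrays, and the proctolin receptor gene Proc-R, with 0.09, -0.16, 0.17 and 0.18.

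Of the testis and accessory gland genes, which a head should lack, 3 of 31 listed were tested. Acp53C14a, an accessory gland protein gene, had 0.80, 0.45 and 0.10 on ETH arrays 1, 3 and 4 and 0.32, -0.12, -0.56 and 0.25 on normal-food arrays, with a difference of 0.54 (SE 0.20, limma adjusted p = 0.911). Mst77F stood at -0.31 and ocn at -0.03 (0.06 with dye swaps not turned), so the 3 did not share a direction. Of 9 muscle genes 6 lay above 0 (7 unturned), against 56.1% of all genes tested, with a median of 0.09. They ran from TpnC73F at -0.34 to Mlc2 at 0.29, both with values on 3 ETH arrays. Their part in the differences of other genes was not tested.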
